A study of Mus musculus with 3 samples.

Results

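Expression of 9 genes of endothelial fatty acid uptake was examined in endothelial cells of the adult mouse renal medulla: Cd36, Fabp4, Fabp5, Gpihbp1, Lpl, Slc27a1, Slc27a3, Slc27a4 and Meox2. A probe set was used when the platform annotation named only that gene for it, and where a gene had several, the one with the highest mean was taken. All 9 genes were found, with 10 probe sets between them, among 19938 genes represented in this way. The cells came from adult male FVB/N mice carrying Tg(TIE2GFP)287Sato, in which the Tie2 promoter drives green fluorescent protein, and were sorted by fluorescence after collagenase treatment of dissected medulla. The Tie2 promoter is also known to be active in some blood cells, so the gate need not hold endothelium alone. All 3 arrays belonged to the same group, each from RNA of a pool of 2 kidneys, and nothing was hybridised as a control. The study calls its samples independent and the labels do not tie a pool to particular animals, so the spread given here is that between these 3 pools.

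Long-chain fatty acids reach the tissue from albumin or from triglyceride-rich lipoproteins. On the capillary wall, GPIHBP1 carries lipoprotein lipase (LPL) across the endothelium and holds it at the luminal face, where the enzyme cuts triglycerides into free fatty acids. CD36 takes long-chain fatty acids up at the membrane, the fatty acid transport proteins of the SLC27 family join uptake to activation with coenzyme A, and the binding proteins FABP4 and FABP5 carry the lipid through the cytosol. The homeobox factor MEOX2, with its partner TCF15, is known to drive such genes in capillaries of the heart, and the nuclear receptor PPARG is known to activate Cd36, Fabp4 and Lpl in several cell types.

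Levels are deposited log2 values per probe set, and a level in units is that value taken out of the logarithm. With 1 group there was nothing to compare levels with except fixed limits. The first was 100 units (log2 6.64), the raw level that the filter of the study used. The second was a background limit, the 95th percentile of 1240 probe sets for olfactory, vomeronasal and bitter taste receptors, which lay at log2 7.94 (246 units). Each gene was tested against each limit by limma across all genes, with Benjamini-Hochberg adjustment, two-sided. Since probes differ in affinity, levels of different genes were not ranked. Of all genes, 46.3% had exactly the same value in every array, so for such genes an SD of 0 is a property of the deposited values rather than a measured error, and the adjusted p of a fit whose prior variance came only from genes with 3 different values is given beside the main one where that matters.

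Of the 9 genes, 6 were called above the background limit, against 52.6% of all genes. These were Cd36, Fabp4, Fabp5, Gpihbp1, Slc27a1 and Slc27a4. Lpl and Slc27a3 could not be told from the limit, and Meox2 was called below it, as were 41.3% of all genes. Above 100 units, 8 of the 9 genes were called, all but Meox2, against 84.5% of all genes, which is close to the general rate. The median level of the 9 genes was 8.90, that of all genes 8.15.

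**Figure D1:**
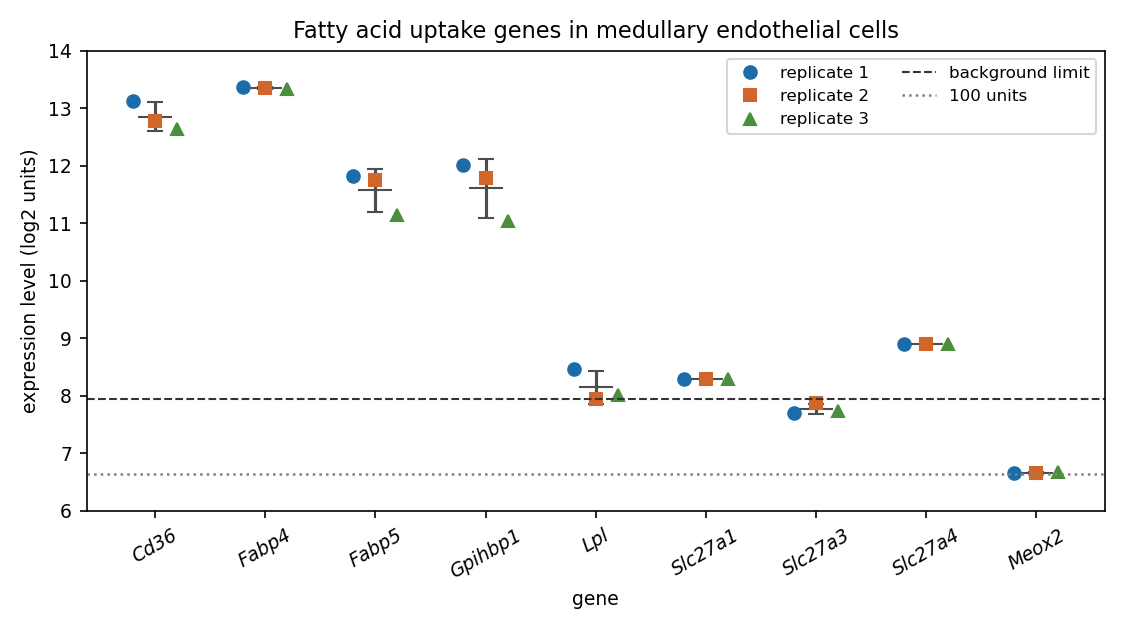
Expression level (y axis, log2 units) of the 9 fatty acid uptake genes (x axis) in medullary endothelial cells, each array being 1 symbol and the lines giving mean and SD (n = 3); the dashed line is the background limit (7.94) and the dotted line 100 units (6.64). Cd36, Fabp4, Fabp5 and Gpihbp1 lie at 11.03 or more in every array, Lpl and Slc27a3 lie around the background limit, and Meox2 lies at the line for 100 units.

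Cd36 encodes the scavenger receptor and fatty acid translocase at the cell surface. Its log2 level was 13.13, 12.78 and 12.65 in replicates 1, 2 and 3. The mean was 12.85 ± 0.25 (SD, n = 3), which lay 4.91 above the background limit (95% interval 4.39 to 5.44, limma adjusted p = 0.000549). Every array was far above both limits, and the highest array was 1.4-fold over the lowest. The study singled Cd36 out as a medullary gene on these samples beside other compartments, so its level is not independent evidence of expression here.

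Both cytosolic binding proteins were also well above the limit. Fabp4 had log2 levels of 13.37, 13.36 and 13.33 in replicates 1, 2 and 3 and a mean of 13.35 ± 0.02 (SD, n = 3), or 5.41 above the limit (limma adjusted p = 2.6e-06). Its arrays differed by 1.03-fold at most, and of the 3858 genes at or above the limit with 3 different values 97.5% had a wider range. Fabp5, the binding protein first known from epidermis, had 11.83, 11.75 and 11.14, with a mean of 11.57 ± 0.38, or 3.63 above the limit (limma adjusted p = 0.00238). Replicate 3 stood apart from the others, and the highest array was 1.61-fold over the lowest. The call for Fabp5 was lost without replicate 1 (limma adjusted p = 0.0561) and without replicate 2 (3.54 above the limit, limma adjusted p = 0.0633), fits in which 2 arrays were left.

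Fabp5 was the only one of the 9 genes with several probe sets naming it alone. The other one read 11.79, 11.71 and 11.13 in replicates 1, 2 and 3, with a mean of 11.54 ± 0.36 (SD, n = 3), so that both gave nearly the same level and the same low value in replicate 3. The probe sets nearest to the chosen one in the order of identifiers were mostly of other chromosomes than the gene: 19 of its 20 neighbours named genes of chromosome 9 and 0 named genes of chromosome 3, where Fabp5 lies. For the other probe set, 16 of 20 neighbours named genes of chromosome 3. Processed copies of Fabp5 occur in the mouse genome, and whether probes of either set also read such copies was not tested.

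Gpihbp1, the anchor of lipoprotein lipase, had the widest spread of the 9 genes. Its log2 level was 12.01, 11.78 and 11.03 in replicates 1, 2 and 3, with a mean of 11.61 ± 0.51 (SD, n = 3), or 3.67 above the background limit (95% interval 2.59 to 4.75, limma adjusted p = 0.0043). The highest array was 1.97-fold over the lowest, and 7.18% of those 3858 genes had a wider range. The call was lost without replicate 1 (3.47 above, limma adjusted p = 0.0679) and without replicate 2 (3.58, limma adjusted p = 0.0863), and the call above 100 units was lost without replicate 2 as well (4.88 above, against 4.97 over all arrays, limma adjusted p = 0.0592). The distances stayed nearly as large in these fits of 2 arrays.

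Lpl, the lipase that GPIHBP1 holds, lay around the background limit in the same samples. It had log2 levels of 8.48, 7.95 and 8.02 (356, 247 and 259 units) in replicates 1, 2 and 3. The mean of 8.15 ± 0.29 (SD, n = 3) was 0.21 above the limit (95% interval -0.40 to 0.81, limma adjusted p = 0.31), so no call was made, although it was called above 100 units (limma adjusted p = 0.00747). Replicate 1 was the high array, and the other two sat at the limit. The call above 100 units was itself lost in the fits of 2 arrays without replicate 2 (1.60 above, limma adjusted p = 0.083) or replicate 3 (1.57, limma adjusted p = 0.0975), although the distance was no smaller than the 1.50 over all arrays. In most tissues Lpl is made by parenchymal cells and moved to the capillary, so a level in endothelial RNA says nothing of the enzyme present on the vessel wall.

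Of the fatty acid transport proteins, which are also acyl-CoA synthetases, 2 of the 3 among the 9 genes were called above the background limit. Slc27a4 was at 8.90, 8.90 and 8.90 in replicates 1, 2 and 3 (477, 476 and 476 units), 0.95 above the limit (limma adjusted p = 2.32e-07, and 0.000234 with the prior from genes with 3 different values). Slc27a1 had the same value of 8.30 (314 units) in all arrays, 0.35 above the limit (limma adjusted p = 8.82e-10, and 0.00555 with that prior). Slc27a3 was at 7.71, 7.87 and 7.73, with a mean of 7.77 ± 0.09 (SD, n = 3), a difference of -0.17 from the limit (95% interval -0.36 to 0.01, limma adjusted p = 0.0603). All of its arrays were under the limit but above 100 units, and without replicate 2 it was called below the limit (limma adjusted p = 0.0363), as it was after quantile normalization (0.0361) and median centring (0.0336). The margins of Slc27a1 and Slc27a3 are small against the choice of limit, as the alternatives given at the end show.

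Meox2 was the 1 gene of the 9 that was called below background. Its log2 levels were 6.66, 6.66 and 6.68 (101, 101 and 102 units), with a mean of 6.66 ± 0.01 (SD, n = 3), a difference of -1.28 from the background limit (limma adjusted p = 1.62e-05, and 0.000107 with the prior from genes with 3 different values). Against 100 units it was 0.02 higher and not called (limma adjusted p = 0.0931). A level under the background limit does not show that the gene is silent. Without replicate 3 the other arrays had the same value, and the call above 100 units that followed (limma adjusted p = 2.71e-16) rests on a spread of 0.

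Promoter windows were looked up for Cd36 and Meox2, which stood at opposite sides of the limit. RefSeq windows on GRCm38.p6, from 250 bases before to 50 after an annotated start, were listed for 5 of the 9 genes (7 windows), and none for Fabp4, Fabp5, Gpihbp1 and Lpl. RefSeq lists several transcripts of Cd36, and its window belongs to 1 of their starts. The windows are printed to show how they differ in CpG dinucleotides, which are in capitals. That of Cd36 lies at chr5:17835847-17836146 on the minus strand and that of Meox2 at chr12:37108290-37108589 on the plus strand.
Cd36: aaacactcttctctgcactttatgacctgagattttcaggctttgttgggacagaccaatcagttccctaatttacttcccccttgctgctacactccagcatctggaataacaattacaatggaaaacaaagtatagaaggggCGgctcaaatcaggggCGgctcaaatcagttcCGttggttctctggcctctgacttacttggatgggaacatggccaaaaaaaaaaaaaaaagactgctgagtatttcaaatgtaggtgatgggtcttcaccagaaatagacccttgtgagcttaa
Meox2: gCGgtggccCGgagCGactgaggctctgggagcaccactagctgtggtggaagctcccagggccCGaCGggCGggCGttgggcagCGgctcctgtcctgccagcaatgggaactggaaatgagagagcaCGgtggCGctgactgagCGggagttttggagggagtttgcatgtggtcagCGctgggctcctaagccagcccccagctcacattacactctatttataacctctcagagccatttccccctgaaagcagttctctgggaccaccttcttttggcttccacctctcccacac

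The Cd36 window held 3 CpG dinucleotides and 43.0% G and C, and the Meox2 window held 12 and 60.7%. The 5 windows of Slc27a1, Slc27a3 and Slc27a4 held 10 to 20 CpG, beside a median of 7 over 32851 windows of the same length. The letters AGGTCA, a core that nuclear receptors such as PPARG bind, were searched on both strands and occurred in the Cd36 window alone of the 7, as TGACCT at bases -228 to -223 from the start, and in 16.3% of all windows. TAATTA, a core that homeobox proteins bind, was in none of the 7 windows and in 5.29% of all. The E-box CANNTG, bound by factors of the TCF15 kind, was in each of the 7 and in 72.3% of all, and no motif overlapped another. These matches describe the letters in the windows, and binding was not tested.

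The regulators of these genes were mostly above the background limit, although Meox2 was not. Meox1, the paralog of Meox2, had a log2 level of 10.54, 10.69 and 10.27 in replicates 1, 2 and 3 (mean 10.50 ± 0.21, SD, n = 3, limma adjusted p = 0.0015). Tcf15, the basic helix-loop-helix partner, was at 9.26, 9.26 and 9.48 (9.33 ± 0.13, limma adjusted p = 0.00192). Pparg had 11.53, 11.42 and 11.05 (11.33 ± 0.25, limma adjusted p = 0.00119), and its relative Ppard was called above the limit at 8.43 ± 0.02, whereas Ppara at 7.76 was called below. Ppara had the same value in every array and differed from the limit by -0.18, so its call rests on a spread of 0. The heterodimer partner of these receptors, Rxra (9.17 ± 0.06), and Foxo1 (9.70 ± 0.02), a regulator of endothelial metabolism, were called above. The coactivator Ppargc1a was at 8.65 ± 0.33 and not called (limma adjusted p = 0.0511).

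Among signals known to act on endothelial fatty acid transport, Vegfb, at 9.28 in all arrays, and its receptors Flt1 (12.84 ± 0.13) and Nrp1 (12.41 ± 0.22) were called above the limit. The Notch receptor Notch1 (9.89 ± 0.31) and the Notch effector Rbpj (9.85 ± 0.08), the peptide Apln (8.59), its receptor Aplnr (11.79 ± 0.78) and the factor Klf4 (9.15 ± 0.10) were also called above it. Aplnr is another gene that the study singled out on these samples. Hibch, of the valine pathway that gives a secreted stimulator of fatty acid uptake, was not called at 7.57 ± 0.25. In all, 14 of 17 regulators were called above the limit and 1 below, against 52.6% and 41.3% of all genes, with a median level of 9.33. With the prior from genes with 3 different values 15 of the 17 were called above, beside 49.8% of all genes.

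In the main fit none of the other measured SLC27 and FABP genes was called above the limit. Of all genes 52.6% were called above and 41.3% below. The transport proteins Slc27a2 (log2 6.93), Slc27a5 (7.34) and Slc27a6 (6.38), known from kidney tubule, liver and heart, were all called below it, 3 of 3. Of 8 other binding proteins 7 were below: Fabp1 of the liver (4.64), Fabp2 of the intestine (6.46), Fabp6 (6.28), Fabp7 (7.42 ± 0.03, SD, n = 3), Fabp9 (7.41 ± 0.04), Fabp12 (7.05) and Pmp2 of myelin (5.98 ± 0.06). The heart type Fabp3, also known from endothelium of muscle, had 9.16, 8.76 and 8.07 in replicates 1, 2 and 3 and was not called at 8.67 ± 0.55 (limma adjusted p = 0.128). It was called above the limit in the fit with the prior from genes with 3 different values. There 1 of the 8 passed, beside 49.8% of all genes.

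Lipoprotein handling was represented by partners of the lipase and by receptors. Of 7 measured partners and related lipases 5 were called above the limit, against 52.6% of all genes. Sel1l (10.24 ± 0.15, SD, n = 3) and Lmf1 (9.44), both needed for the folding of LPL, and Angptl8, whose mean lay 1.06 above the limit, were among them. Angptl4, an inhibitor of LPL, lay 0.06 above the limit with the same value in all arrays, and Apoa5 was at 8.15 ± 0.03, while Apoc3 (7.85 ± 0.01) and the endothelial lipase Lipg (7.04) were called below it. Of the 8 receptors 6 were called above, among them the high-density lipoprotein receptor Scarb1 (9.76 ± 0.08), Lrp1 at 7.96, which is next to the limit, and Scarb2 (11.19 ± 0.05), the lysosomal relative of CD36. The very-low-density lipoprotein receptor Vldlr (7.71) and the oxidised lipoprotein receptor Olr1 (6.41) were called below. With the prior from genes with 3 different values, 4 of the 7 partners and related lipases and 5 of the 8 receptors were called above. With that prior 49.8% of all genes were called above.

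**Figure D2:**
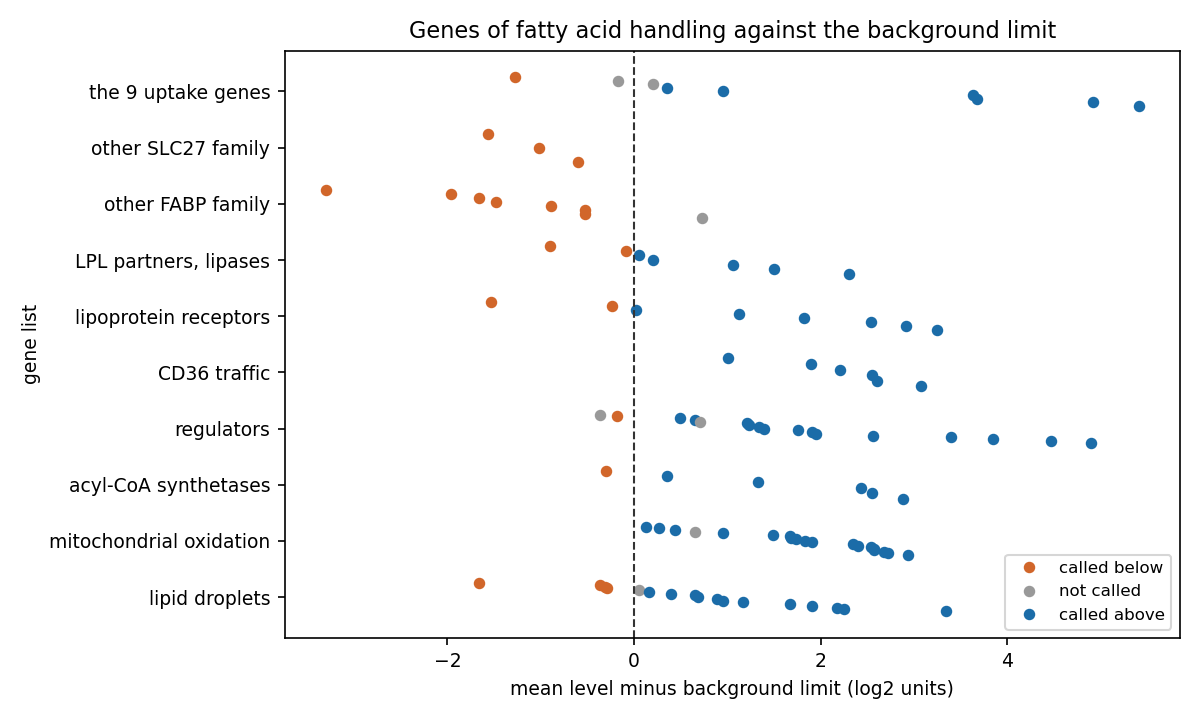
Mean log2 level minus the background limit (x axis, log2 units) for each measured gene of 10 lists of fatty acid handling (y axis), coloured by the limma call; the dashed line is the limit. The 9 uptake genes run from -1.28 to 5.41, other SLC27 and FABP relatives lie mostly to the left of the line, and mitochondrial oxidation genes lie to its right.

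Genes of CD36 traffic and genes that act on the fatty acid after uptake were called above the limit for the most part, beside 52.6% of all genes. All 6 measured genes of CD36 traffic were called above it, including the caveolin Cav1 (10.54 ± 0.16, SD, n = 3), the palmitoyltransferases Zdhhc5 (10.15 ± 0.20) and Zdhhc4 (9.84 ± 0.58) and the kinase Fyn (11.02 ± 0.37). Of 6 measured acyl-CoA synthetases and binding proteins 5 were above, with Acsl5 at 10.82 ± 0.04 and Acsl4 at 9.27 ± 0.13, whereas Acsl6 (7.64) was below and Acsbg1 was at 8.29. Of 19 measured genes of mitochondrial oxidation 18 were above and none below, for example Cpt1a (9.68), the gate of long-chain oxidation, Cpt2 (8.38 ± 0.06), the carnitine carrier Slc25a20 (9.61 ± 0.33) and Acadvl (10.51 ± 0.04). The exception, Echs1, was at 8.59 ± 0.36 and not called.

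Of 17 genes of lipid droplets and triglyceride turnover 12 were above and 4 below. Plin2 (10.11 ± 0.06, SD, n = 3), a coat protein of droplets in most cells, Plin3 (8.90) and the triglyceride synthase Dgat1 (9.61 ± 0.32) were above. Dgat2 (7.65), Lpin1 (7.58) and the adipose droplet gene Cidec (7.63) were below. Of all genes 52.6% were called above and 41.3% below, and nothing particular to a list is read from these counts. Several fell by over 1.5 times in fits of 2 arrays: CD36 traffic from 6 to 3 and the acyl-CoA list from 5 to 3 without replicate 3, and lipid droplets from 12 to 7 and the partners of LPL from 5 to 3 without replicate 2. Mitochondrial oxidation fell from 18 to 12 without replicate 1 and to 15 without replicate 2 or 3.

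The arrays did not give the same picture for each gene. Of the 5 uptake genes with 3 different values and a mean at or above the limit, 4 (Cd36, Fabp4, Fabp5 and Gpihbp1) were highest in replicate 1 and lowest in replicate 3. That order was found in 20.5% of 3858 such genes over the whole table. The deviation of replicate 3 from the mean was -0.21 for Cd36, -0.02 for Fabp4, -0.43 for Fabp5 and -0.58 for Gpihbp1, and the range between arrays was 0.48, 0.04, 0.69 and 0.98 in turn, against a median range of 0.34 over those 3858 genes. Lpl was highest in replicate 1 as well but lowest in replicate 2. Among other listed genes with 3 different values, at any level, the order of Cd36 was found in 4 of 9 regulators (Pparg, Ppargc1a, Nrp1 and Aplnr). It was found in 4 of 8 endothelial markers (Cdh5, Kdr, Esam and Eng) and 1 of 2 other binding proteins (Fabp3). It was also found in 1 of 3 such genes of CD36 traffic, 2 of 5 of lipid droplets and 1 of 6 of mitochondrial oxidation. The thick ascending limb list had 2 of 3, the collecting duct and macrophage lists 1 of 2 each, and the other lists none. This describes 3 arrays and is no test of a relation.

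**Figure D3:**
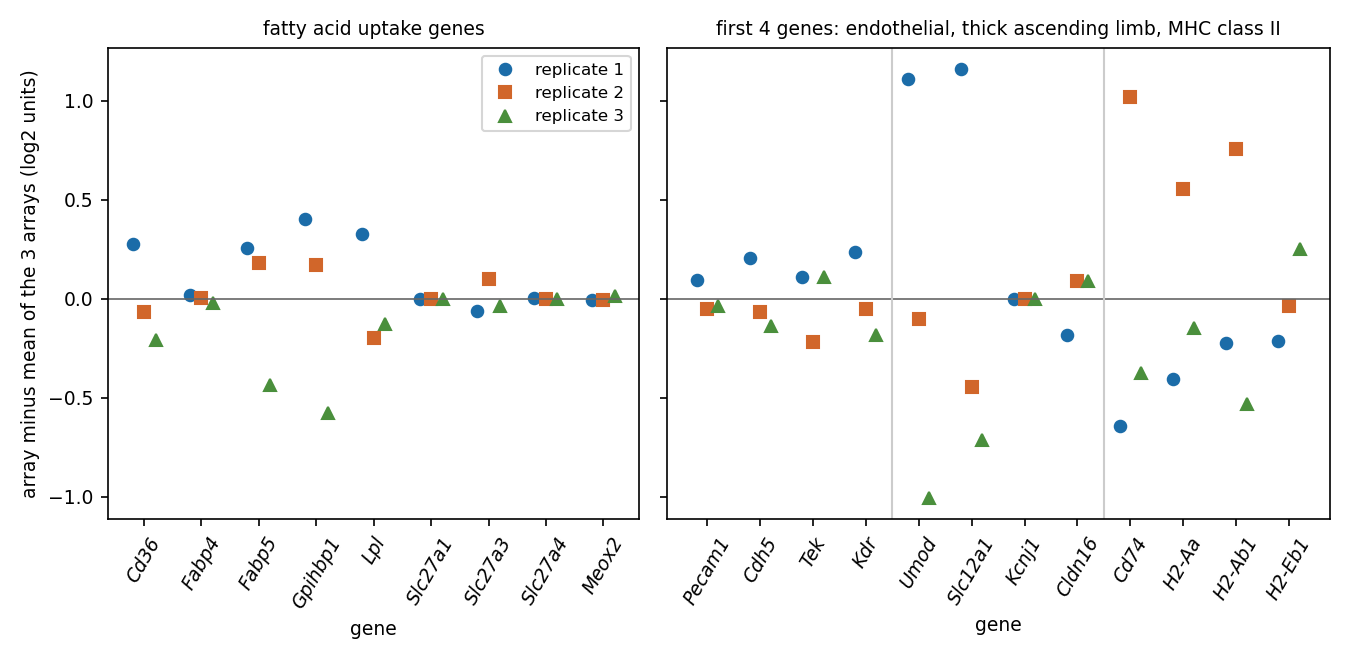
Level in each array minus the mean of the 3 arrays (y axis, log2 units) for the 9 uptake genes (left) and for the first 4 genes of the endothelial, thick ascending limb and MHC class II lists (right), 1 point per array. Fabp5 and Gpihbp1 are lowest in replicate 3, Umod and Slc12a1 are highest in replicate 1, and Cd74, H2-Aa and H2-Ab1 are highest in replicate 2.

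For some lists of other cells the summed level had the order of Cd36, though most of their genes did not. The summed level of 6 thick ascending limb genes was 5400, 3070 and 2210 units in replicates 1, 2 and 3, in the same order as Cd36, Fabp5 and Gpihbp1. Only 2 of the 6 genes had that order themselves. Umod, the Tamm-Horsfall protein, was at log2 11.61, 10.40 and 9.49, and the cotransporter Slc12a1 at 9.68, 8.07 and 7.81. Egf was highest in replicate 1 and equal in the others (8.76, 8.16 and 8.16), and Kcnj1 had 8.84 in every array. Cldn10 was highest in replicate 2 (8.76, 9.08 and 8.50). Cldn16 (7.25 ± 0.16, SD, n = 3) was lowest in replicate 1 and was called below the limit. The summed level of 10 endothelial genes was 49900, 44300 and 44500 units, with 7 of the 10 highest in replicate 1. The 5 class II antigen presentation genes summed to 3460, 7010 and 3850 units, highest in replicate 2, with Cd74 (9.91 ± 0.89), H2-Aa (10.90 ± 0.49), H2-Ab1 (9.91 ± 0.67) and H2-Eb1 (8.62 ± 0.24) called above the limit and Ciita (7.98 ± 0.10) not called. The count of 4 called above became 0 without replicate 1, 1 without replicate 2 and 0 without replicate 3. The summed levels of collecting duct genes (2180, 2150 and 1910 units) and of smooth muscle and pericyte genes (1740, 1720 and 1710 units) also had the order of Cd36. Of the single genes, 1 of 6 collecting duct genes and 0 of 8 smooth muscle and pericyte genes had it. In the latter list 4 genes had the same value in every array and 5 were called below the limit, so nothing is read from that sum. The part of other cells in the spread of the uptake genes was not tested, and in sorted bulk RNA fewer cells of a type and less RNA per cell cannot be told apart.

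The label was checked against markers. All 10 endothelial genes were called above the background limit, among them Pecam1 (12.44 ± 0.08, SD, n = 3), Cdh5 (12.71 ± 0.18), Tek (12.80 ± 0.19), which encodes Tie2, and Kdr (12.17 ± 0.21). The cells were sorted by a reporter of the Tie2 promoter, so the level of Tek is not an independent check. Of 6 adipocyte genes, which are of interest because fat cells hold Fabp4, Cd36 and Lpl in abundance, 3 were called above and 3 below, near the rates of 52.6% and 41.3% over all genes, with Adipoq at 6.21 and Lep at 6.78 both below and Plin1 (8.11), Retn (8.22 ± 0.01) and Pck1 (8.03) just above. Their summed level was 1220 units in each array. With the prior from genes with 3 different values, 1 of the 6 adipocyte genes was called above, beside 49.8% of all genes.

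Macrophages also use FABP4, CD36 and LPL. Of 10 macrophage genes 2 were called above the limit and 7 below, with Ptprc (6.68), Adgre1 (6.18), Csf1r (7.54) and C1qa (7.91) all below. C1qa had the same value in every array and differed from the limit by -0.03, so its call rests on a spread of 0. C1qb at 7.96 and Cd68 at 7.99 were called above with the same value in every array, and neither was called with the prior from genes with 3 different values. Their summed level was 1860, 1890 and 1830 units. Platelets hold CD36 too, and Pf4 (6.44 ± 0.10, SD, n = 3) and Ppbp (7.12 ± 0.28) were below the limit while Itga2b (8.24 ± 0.01) and Gp9 (8.23) were above, with 3 of 6 platelet and red cell genes above in all and a summed level of 1340, 1330 and 1400 units. Of the 6 adipocyte genes 5, and of the 10 macrophage genes 6, had the same value in every array, so their sums could hardly differ between arrays.

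Other cells of the medulla were seen to differing degrees. Of 6 collecting duct genes 4 were called above the limit, such as Aqp2 (9.54 ± 0.23, SD, n = 3), Aqp3 (8.55 ± 0.01) and Hsd11b2 (8.25), unlike Scnn1g (6.43, below) and Atp6v1g3 (7.67 ± 0.27, not called). Of 6 thick ascending limb genes 3 were called above (2 without replicate 1, and 1 without replicate 2 or 3), and of 7 proximal tubule genes 2, with Lrp2 at 7.28 and Cubn at 6.30 below and Slc34a1 at 8.40 and Slc5a2 at 8.41 above. Of 8 smooth muscle and pericyte genes 1 was above (Cspg4, 8.02 ± 0.02), Acta2 (7.56), Tagln (7.80 ± 0.06) and Pdgfrb (7.56) were below, and Myh11 (7.98 ± 0.06) was not called. None of the 8 was called above with the prior from genes with 3 different values, beside 49.8% of all genes. Of 6 fibroblast genes 2 were above, Col1a1 (8.81) and Col3a1 (8.17), while Dcn (7.26) and Pdgfra (7.61) were below. Of 5 lymphatic genes Prox1 (8.74 ± 0.11), Flt4 (9.48 ± 0.23) and Pdpn (7.96, the same value in every array) were above. Lyve1 (7.96 ± 0.08) was not called and Mmrn1 (6.58) was below. Of the 5, 1 was called above without replicate 1 or 3 (44.0% and 43.1% of all genes). With the prior from genes with 3 different values 2 were (49.8%). Shares of this size are read against the 52.6% of all genes called above the limit, and 3 of 6 is close to that general rate.

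For the 3 uptake genes with the largest SD, the genes with the nearest array pattern were looked up, as the root mean square difference of the 3 deviations from the mean. For Gpihbp1 these were S100a1 (0.0075), Plscr2 (0.0084) and Denr (0.0107), and 40 of 11250 genes lay within 0.1. For Fabp5 they were Oaz2 (0.0112), Defb25 (0.0153) and Pbrm1 (0.0161), with 105 within 0.1. For Lpl they were Esm1 (0.0086), Cmip (0.0088) and Cers5 (0.0134), with 348 within 0.1. A pattern over 3 arrays of the same group has little content, and nothing is read from this likeness.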

How the data were processed

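RNA of sorted cells was amplified, labelled with biotin and hybridised to an Affymetrix mouse whole-transcript array. What was deposited is 1 log2 level for each probe set and array. Affymetrix Expression Console is the tool in the submitters' processing notes, without a version, and RMA normalization by the authors is named in the study. The log2 scale was inferred from the values (3.55 to 14.4), and no probe-level data or scan dates were used here.

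Of 35557 probe sets, 21789 named 1 gene in the platform annotation, 1621 several and 12147 none; symbols were updated through Entrez identifiers to RefSeq (99.6% matched). The probe set with the highest mean stood for each gene. limma (lmFit with an intercept, eBayes, two-sided, threshold 0.05) was run on the log2 level minus each limit over all 19938 genes and was tested on simulated data. The simulated spreads were drawn only from genes with 3 different values. The simulation could therefore not check the fit in data where 46.3% of genes have the same value in every array. The medians of the arrays differed by 0.03 at most. Precision is limited by there being 3 arrays.

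The 9 genes and the lists were chosen with earlier results of these data known. Of 186 listed genes, 12 had no probe set naming them alone and were not analysed here. The text names all 9 genes, all measured relatives, partners and regulators, and of each other list the first 4 measured genes with up to 3 on the other side of the limit. Alternatives changed the limits, the background set, the prior, the normalization and the choice among probe sets of a gene, and left out each replicate. R 4.3.3 with limma 3.58.1 and Python 3.11.15 with pandas 2.3.3, numpy 2.4.6 and matplotlib 3.10.9 were used.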

Additional observations from a re-analysis of the deposited data

How the results depend on the processing

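The count of uptake genes above the background limit was 6 with the lowest probe set and the mean of probe sets (51.5% and 52.1% of all genes above). It was also 6 after quantile normalization (53.2%) and median centring (53.3%). The prior from genes with 3 different values (49.8%) and percentile 90 (63.4%) gave 6 too. At percentile 90, 6 of 9 is close to the general rate. The count became 5 at percentile 99 (a limit of 424 units, with 29.9% of all genes above). It was 8 without olfactory receptors in the background set (174 units, 68.0% of all genes above) and 4 to 6 when 1 array was left out (42.8% to 44.0%). At percentile 99, Lpl lay at -0.58 and Slc27a1 at -0.43 against the limit, and Slc27a3 lay at 0.16 above it at percentile 90 and 0.32 above without olfactory receptors; these turned because the limit moved past them. Above 100 units the count was 6 to 8 when 1 array was left out, 9 at a limit of 50 units (94.3% of all genes) and 6 at 200 units (62.3%), where Meox2 lay at -0.98. At percentile 99, all genes called above fell to 5964 and those called below rose to 12390, and the other listed genes called above were 66 in place of 103. When 1 array was left out these were 8537 to 8776 above, 7628 to 7808 below and 78 to 81. Of 189 alternative values for the 9 genes, 168 kept direction and call. Part of this tally was fixed by design. Fabp5 alone had several probe sets, so the probe set rules could not change the level of the other uptake genes. Median centring kept each mean level, so that only the spread and the calls could change. Over these settings the background limit ranged from 7.45 to 8.73, so the calls of genes between those levels depend on the choice of limit.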
